A study of Mus musculus with 4 samples.

Results

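CpG methylation was described at 10 genes of primed pluripotency and early differentiation, namely Fgf5, Otx2, Pou3f1, Lef1, Nodal, Lefty2, T, Eomes, Gata4 and Gata6. Their CpG sites were taken from 5 kb upstream of the annotated 5′ end to the 3′ end of each gene (mm9, GENCODE vM1), and were split into a 5′ window, within 1 kb of the 5′ end, and the rest of the gene span. At least 10 reads in at least 1 library were found at 978 of these sites, of 981048 in the whole data set, and 392 of 400195 sites reached this coverage in all 4 libraries. All levels below are percentages of reads that were methylated, and differences are in percentage points.

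Methylation was measured by reduced representation bisulfite sequencing (RRBS-seq), which sequences fragments cut by MspI at CCGG and reads unmethylated cytosines as T after bisulfite conversion. The cells were mouse embryonic stem (ES) cells, either WT or Chr4-cl KO, in which a cluster of KRAB zinc finger protein genes on chromosome 4 was deleted with Cas9 and a pair of guide RNAs. The Chr4-cl KO cells came from mice that carry a Cre-ERT transgene at the Rosa26 locus, WT and KO clones were picked one by one after the deletion, and each genotype was grown in medium with 20% FCS and LIF (serum) or for 1 week in 2i medium with vitamin C (2i + Vitamin C). There was 1 library for each of the 4 combinations, so clone, genotype and library cannot be told apart, no difference has a replicate check, and each p-value compares a pair of libraries and not the conditions.

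Naive ES cells in 2i are held in a ground state by blocking MEK and GSK3, and are known for a genome with little DNA methylation. Vitamin C is a cofactor of the TET enzymes, which oxidise methylated cytosine. Most of the genes described here are low in that state and become more active as cells pass into the primed epiblast and then into the primitive streak, mesoderm and endoderm. Many genes of this kind have CpG islands at their promoters, and CpG islands are usually unmethylated whether or not the gene is active, while CpG sites inside gene bodies are usually methylated.

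The libraries held 42684672 to 90649194 reads summed over CpG sites, with a median of 25 to 50 reads at sites with at least 10, and the Chr4-cl KO library in 2i + Vitamin C was the shallowest. Between the guide RNA sites on chromosome 4 lay 0.122% and 0.116% of the reads in the WT libraries and 0.000928% and 0.00344% in the Chr4-cl KO libraries, so the genotypes went with their labels. Pou3f1, the only one of the 10 genes on chromosome 4, lies outside that deletion. DNA methylation alone cannot check the cell type. Values of the 4 libraries are given below in the order WT serum, Chr4-cl KO serum, WT 2i + Vitamin C and Chr4-cl KO 2i + Vitamin C. Mean methylation over the 400195 sites was 27.4%, 30.5%, 13.9% and 12.2%, and over the 392 sites of the 10 genes 10.1%, 13.5%, 5.05% and 3.61%.

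The following stretches show the sequence behind the main patterns, each read from mm9 and written 5′ to 3′ on the strand of its gene. The first is in the first intron of Fgf5 (chr5:98683893-98683996, plus strand), the most methylated stretch of its 5′ window. The second is in an intron of Lef1 (chr3:130828869-130828976, plus strand), where methylation was high in serum. The third is in an intron of Gata4 (chr14:63874181-63874370, minus strand), with intermediate levels in serum. The last is a coding part of the Pou3f1 CpG island (chr4:124335243-124335377, plus strand), which was close to unmethylated in every library. Capitals mark every CpG.
Fgf5 intron: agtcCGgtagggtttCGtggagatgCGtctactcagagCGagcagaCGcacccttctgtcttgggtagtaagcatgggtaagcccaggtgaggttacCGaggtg
Lef1 intron: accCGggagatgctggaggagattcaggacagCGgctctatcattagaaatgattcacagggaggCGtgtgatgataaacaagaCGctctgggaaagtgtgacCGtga
Gata4 intron: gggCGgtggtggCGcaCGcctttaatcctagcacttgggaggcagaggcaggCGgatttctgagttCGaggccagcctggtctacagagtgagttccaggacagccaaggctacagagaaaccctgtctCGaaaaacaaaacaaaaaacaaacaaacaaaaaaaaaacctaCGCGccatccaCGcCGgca
Pou3f1 island: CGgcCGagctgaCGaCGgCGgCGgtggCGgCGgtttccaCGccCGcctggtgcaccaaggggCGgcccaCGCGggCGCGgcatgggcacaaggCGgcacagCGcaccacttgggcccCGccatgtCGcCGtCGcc

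The Pou3f1 stretch holds 21 CpG in 135 bases, against 6 in 104 for Fgf5, 5 in 108 for Lef1 and 10 in 190 for Gata4. The central 30 bases of the Gata4 stretch occur 1673 times in mm9 without a mismatch, so this stretch is repeated sequence and those bases alone cannot place a read. The central 30 bases of the other 3 stretches occur once each. At the 5′ ends, the window of Pou3f1 held 239 CpG and 25 CCGG, and that of Gata4 27 CpG and 5 CCGG. The median was 101.5 CpG (observed to expected ratio 0.625) over the 10 genes, and 61 CpG (ratio 0.468) over all 22238 protein-coding genes.

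The first question was which of these genes were methylated at all in serum. In the 5′ window, 147 of 159 sites covered in all 4 libraries (92.5%) were under 10% methylated in WT serum and none reached 50%. Over all protein-coding genes, 95.3% of 191229 such sites were under 10%. In the rest of the spans, 169 of 233 sites (72.5%) were under 10% and 29 (12.4%) were at 50% or more, where all protein-coding genes had 38.5% and 46.6% of 131932 sites. The larger gap to other genes thus lay in the body and upstream part of the span, as a description with no test, since neighbouring sites share reads. How the 5′ windows of the 10 genes compare with others is less clear. Pou3f1 alone gave 79 of the 159 sites there, none above 7.14% in WT serum, and Otx2, Lefty2 and Gata4 gave none. Lef1 alone gave 80 of the 233 sites in the rest of the spans. The plot of the serum level classes shows this split.

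**Figure D1:**
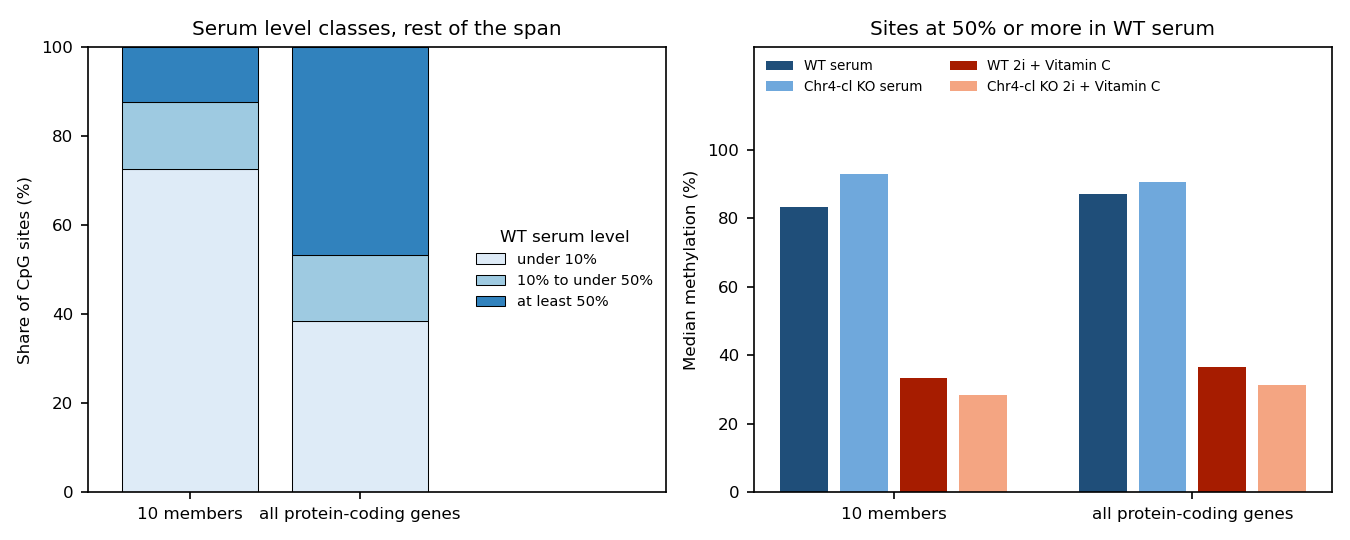
Left, share of CpG sites (%) in 3 classes of methylation in WT serum, for sites in the rest of the gene span covered in all 4 libraries, in the 10 genes (233 sites) and in all protein-coding genes (131932 sites). Right, median methylation (%) in each library of the sites at 50% or more in WT serum, 29 in the 10 genes and 61473 in all genes; the 10 genes have fewer such sites, and both sets have medians from 28.6% to 36.6% in 2i + Vitamin C.

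Sites that were highly methylated in serum were lower in 2i + Vitamin C in the 10 genes, as in others. The 29 sites at 50% or more in WT serum had medians of 83.3%, 92.9%, 33.3% and 28.6%. The 61473 sites of this class in all protein-coding genes had medians of 87.1%, 90.6%, 36.6% and 31.2%. Because the class was cut on WT serum, the WT serum median is fixed by that choice.

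A gene level was the mean over sites covered in all 4 libraries, given for a window with at least 3 such sites, and 7 genes had one in each window. No gene level exists in the 5′ window for Otx2, Lefty2 and Gata4, nor in the rest of the span for Fgf5, T and Eomes. The SD given with a level is over CpG sites and is no replicate error.

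**Figure D2:**
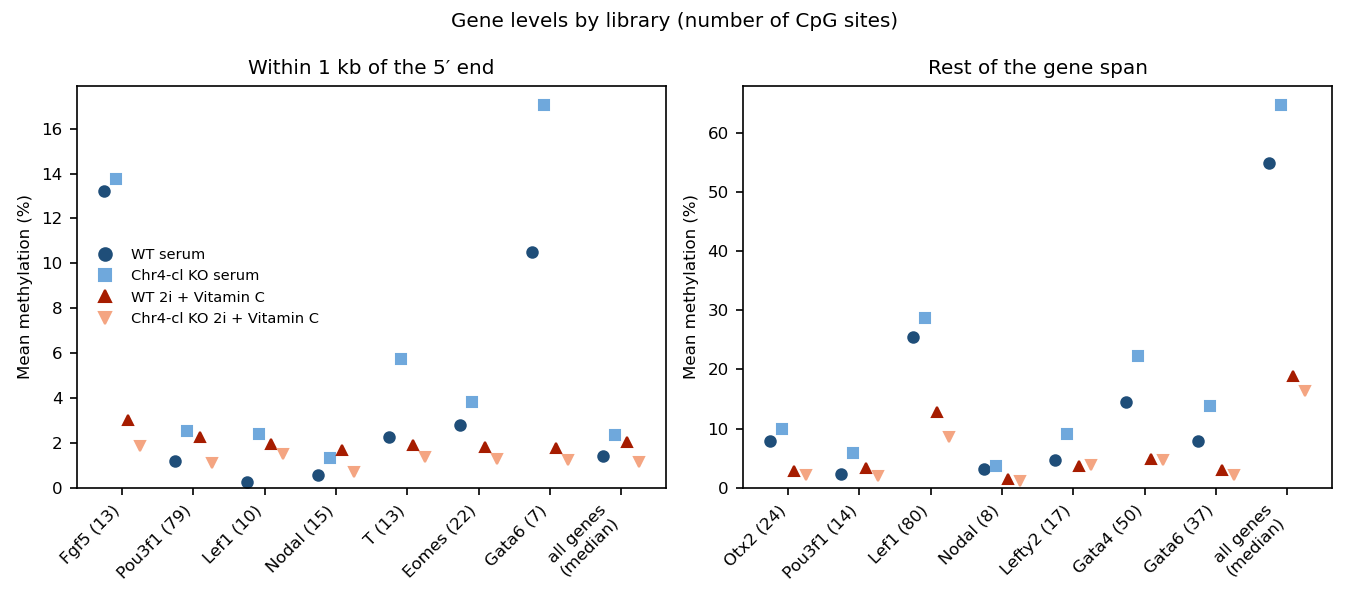
Mean methylation (%) of CpG sites covered in all 4 libraries, for each gene (number of sites in parentheses) and each library, within 1 kb of the 5′ end (left) and in the rest of the gene span (right), with the median over all protein-coding genes at the right of each panel. In the 5′ window Fgf5 and Gata6 stand above 10% in serum at these sites. Over all 5′ window sites covered in all but Chr4-cl KO 2i + Vitamin C, both have means below 10% in serum. In the rest of the span all 7 genes lie below the median over all genes in every library.

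Among the genes of the primed epiblast, Fgf5, the secreted growth factor that marks this state, was methylated within its 5′ window. Its level over 13 sites was 13.2% ± 9.35 (SD), 13.7% ± 12.0, 3.03% ± 2.71 and 1.88% ± 2.87. Over the 25 sites covered in all but Chr4-cl KO 2i + Vitamin C the means were lower in serum, with 7.59%, 8.09% and 2.99%. Of these, the 10 sites nearest the start, from 54 to 174 bp, had means of 1.28%, 1.74% and 2.14%. All of these sites lay downstream of the start. The 4 sites from 300 to 325 bp, in the coding exon, had means of 2.08%, 2.24%, 2.03% and 0% in the 4 libraries. The 3 sites from 535 to 662 bp had means of 12.1%, 8.33%, 2.84% and 3.33%. The 6 sites of the printed intron stretch, from 694 to 787 bp, had means of 21.2%, 24.1%, 3.8% and 2.41%. Both serum libraries were above both 2i + Vitamin C libraries at each of these 6 sites. The most methylated of them lay at 736 bp (chr5:98683939) and had 29.2% of 48 reads, 36.0% of 86, 2.74% of 73 and 3.06% of 98. From serum to 2i + Vitamin C it changed by -26.4 points in WT (Fisher's exact test, adjusted p = 0.000175) and -33.0 points in Chr4-cl KO cells (adjusted p = 3.46e-08). The genotypes were 6.88 points apart in serum and 0.322 in 2i + Vitamin C (Fisher's exact test, adjusted p = 1 in both).

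Otx2, a homeobox factor that drives exit from the naive state, had little coverage in its 5′ window, which holds 2 CCGG. Only 3 sites there reached 10 reads, all in Chr4-cl KO 2i + Vitamin C and all at 0%. Over 24 sites in the rest of the span its level was 7.92% ± 7.64, 9.94% ± 10.1, 2.79% ± 2.34 and 2.09% ± 2.64. The 3 upstream sites from 1969 to 1785 bp before the 5′ end had means of 17.8%, 19.1%, 4.29% and 4.07%, the 4 sites from 1767 to 1661 bp before it had means of 16.0%, 18.8%, 2.94% and 2.67%, and the 5 sites from 1417 to 1351 bp before it 5.0%, 4.29%, 0.833% and 0.952%. Otx2 has further annotated starts downstream, and the 15 sites within 1 kb of those at 2123 to 2398 bp had means of 2.45%, 1.56% and 1.4% in the 3 libraries that covered them, all but Chr4-cl KO 2i + Vitamin C. The 10 sites within 1 kb of the start at 4772 bp had means of 4.78%, 6.17%, 2.89% and 2.25%. In serum the stretches from 1969 to 1661 bp upstream thus had the highest means of the Otx2 stretches covered in all 4 libraries. The most methylated site covered in all of them (chr14:49289288) had 23.3% of 30 reads, 21.4% of 14, 7.55% of 53 and 9.09% of 33, and passed no test.

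Pou3f1 (Oct6), a POU factor of the primed epiblast and neural lineage, had the best covered 5′ window and was close to unmethylated. Its 79 sites in the 5′ window had means of 1.21% ± 1.34, 2.55% ± 4.31, 2.26% ± 3.95 and 1.1% ± 1.14. The 16 sites in the printed island stretch, from 347 to 478 bp, had means of 1.46%, 1.77%, 1.42% and 1.46%. In the rest of the span 14 sites had means of 2.38%, 5.9%, 3.33% and 2.09%. One site stood apart from the others and is described with the genotype comparison.

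Lef1, a DNA-binding partner of β-catenin in Wnt signalling, changed from unmethylated to methylated along its length. The 10 sites of its 5′ window covered in all 4 libraries, from 638 to 733 bp, had means of 0.244% ± 0.771, 2.4% ± 2.34, 1.97% ± 1.52 and 1.49% ± 2.37. Over the 23 sites of that window covered in all but Chr4-cl KO 2i + Vitamin C the means were 2.53%, 1.92% and 2.22%, with WT serum no longer the lowest. The low part reached far on both sides. The 10 sites from 4512 to 4351 bp upstream had means of 0.345%, 2.47%, 1.54% and 0.911%, and the 13 intron sites from 1443 to 1676 bp downstream 0.891%, 1.67%, 2.04% and 1.03%. From 15483 bp onward most covered intron sites were highly methylated in serum, apart from a group around the exon at 89804 to 89829 bp (3 sites with 20.5%, 11.1% and 5.22% in all but Chr4-cl KO 2i + Vitamin C). The 3 sites covered in the printed Lef1 stretch, from 15483 to 15583 bp, had means of 85.5%, 89.0%, 20.6% and 15.9%. The 4 sites from 40413 to 40453 bp had means of 85.7%, 100%, 63.5% and 51.5%. They kept the most methylation in 2i + Vitamin C of all stretches of 3 or more sites covered in all 4 libraries. The 4 sites from 50011 to 50130 bp had means of 93.8%, 97.6%, 59.9% and 16.8%, the last from 10 reads a site or close to it. A single deep site at 81081 bp had 65.3% of 574 reads, 72.8% of 423, 24.3% of 642 and 22.5% of 280. Over the 80 sites outside the 5′ window the level was 25.5% ± 38.4, 28.7% ± 41.2, 12.8% ± 20.1 and 8.67% ± 14.5, and these SDs reflect the mixture of low and high stretches.

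**Figure D3:**
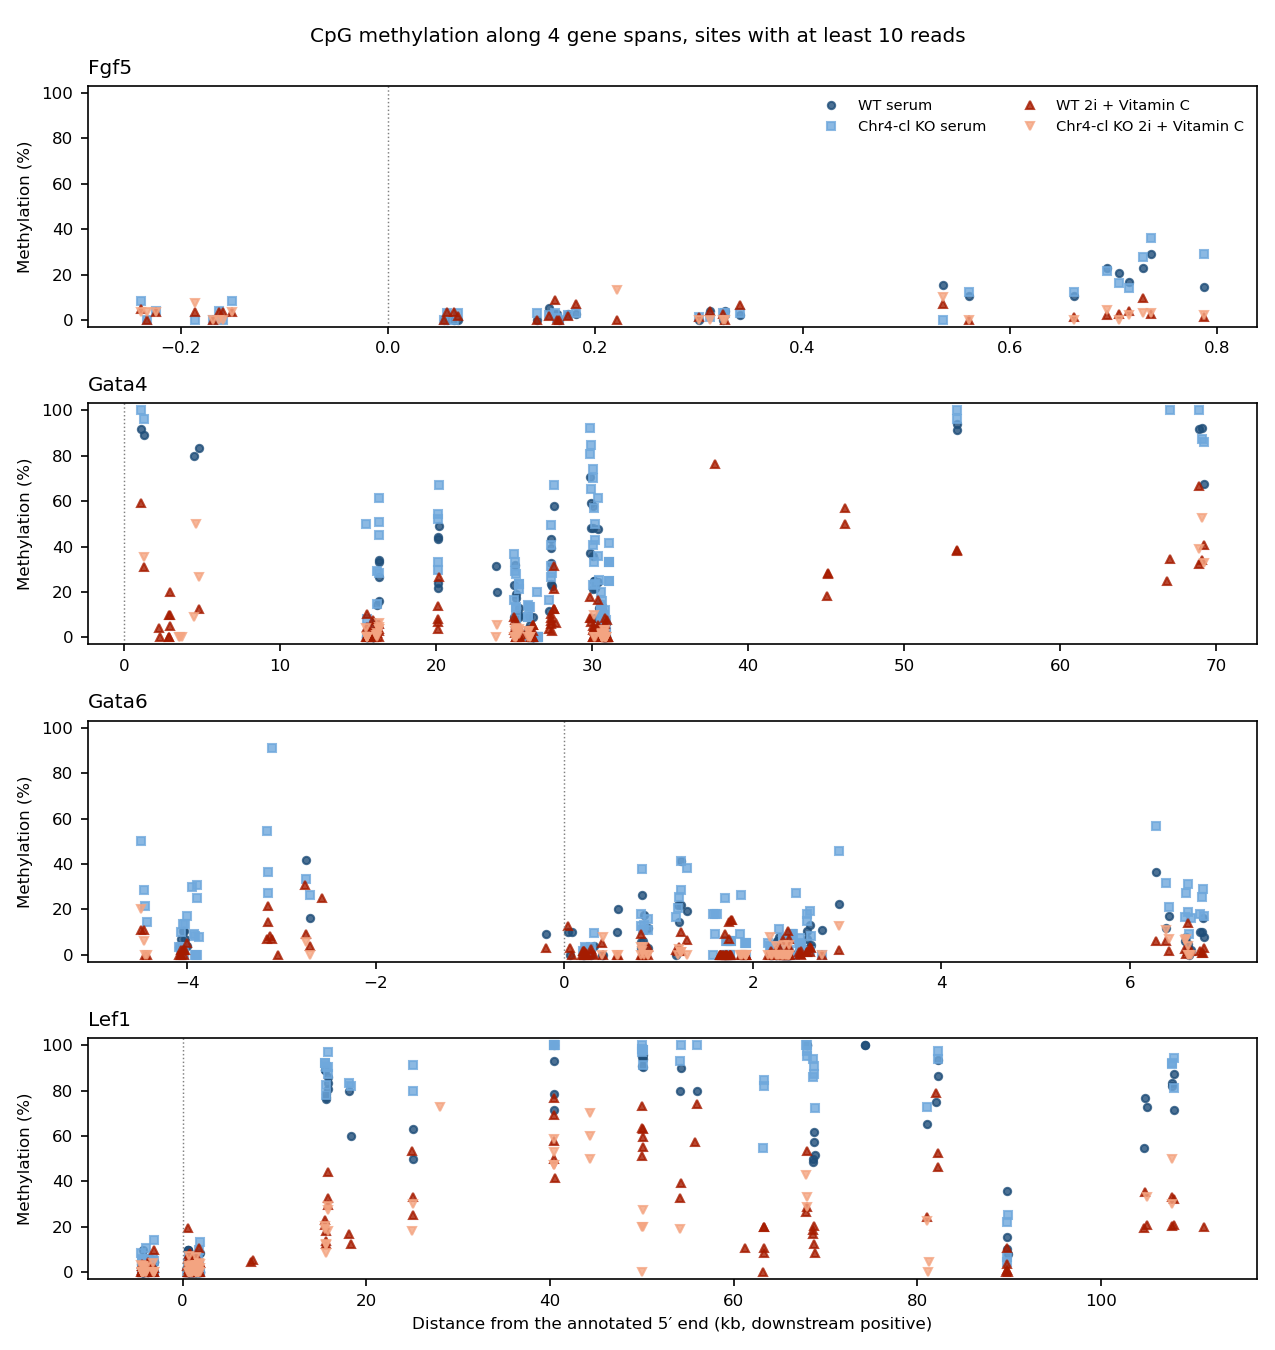
Methylation (%) of single CpG sites in the 4 libraries, against the distance from the annotated 5′ end (kb) in Fgf5, Gata4, Gata6 and Lef1. Each point is 1 site in 1 library. Each library is shown at its own sites with at least 10 reads, so the plotted sites differ between libraries. In Lef1 most sites are near 0 up to about 1913 bp, and from 15483 bp most serum sites lie high with the 2i + Vitamin C sites below them; the Fgf5 panel covers only the 5′ window.

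Nodal, the TGFβ family ligand that keeps the primed state and induces mesendoderm, and Lefty2, its secreted inhibitor, were both low. Nodal had means of 0.567% ± 0.84, 1.34% ± 1.5, 1.69% ± 1.46 and 0.725% ± 1.23 over 15 sites of the 5′ window, with 174 to 322 reads a site at the median. Over 8 sites in the rest of its span the means were 3.19%, 3.7%, 1.52% and 1.23%. Its most methylated site covered in all 4 libraries lay 4681 bp upstream (chr10:60876039), with 15.4% of 13 reads, 9.09% of 11, 3.17% of 63 and 6.25% of 16. In Lefty2, 17 sites in exons and introns downstream of the 5′ window had means of 4.71% ± 4.59, 9.07% ± 4.73, 3.62% ± 3.26 and 3.86% ± 3.47. Chr4-cl KO serum was the highest of the 4 libraries. The most methylated site of Lefty2 covered in all 4 libraries (chr1:182824241, in an intron) had 14.8% of 61 reads, 15.2% of 46, 8.08% of 99 and 6.67% of 60, and passed no test.

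The T-box factors T (Brachyury), which marks the primitive streak and mesoderm, and Eomes, which acts in mesendoderm, had low 5′ windows. T had means of 2.26% ± 3.14, 5.73% ± 3.93, 1.93% ± 2.93 and 1.38% ± 1.98 over 13 sites. A coding site of T at 131 bp had 8.68% of 645 reads, 6.97% of 689, 1.65% of 788 and 1.27% of 316. Counting error is small at this depth, but PCR copies were not told apart and the bisulfite conversion was not checked. Methylation of T was high further inside the gene, where 2 intron sites had at least 10 reads in all 4 libraries. The site at 4569 bp (chr17:8631857) had 81.1% of 37 reads, 93.5% of 31, 47.5% of 80 and 50% of 14. It changed by -33.6 points in WT (Fisher's exact test, adjusted p = 0.00225) and -43.55 points in Chr4-cl KO cells (adjusted p = 0.00702). The site at 4428 bp had 63.2%, 70.8%, 16.7% and 10.5%. Eomes had means of 2.8% ± 2.49, 3.82% ± 3.55, 1.82% ± 1.7 and 1.29% ± 2.77 over 22 sites. Its most methylated site covered in all 4 libraries, 311 bp upstream (chr9:118387019), had 5.77% of 104 reads, 15.2% of 145, 2.79% of 179 and 1.3% of 77.

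The endoderm factors Gata4 and Gata6, zinc finger proteins that specify primitive endoderm, held most of the intermediate levels. The annotated 5′ end of Gata4 belongs to an alternative transcript, and no site within 1 kb of it reached 10 reads in any library. At 1257 bp from that end, within 1 kb of another annotated start at 568 bp, a site had 88.9%, 96.0%, 31.1% and 35.3%. Further annotated starts lie at 26421 to 26444 bp, and the 5 nearby sites covered in all 4 libraries, from 25896 to 26027 bp, had means of 4.07%, 9.96%, 2.15% and 1.18%. The 7 sites covered in the printed repeat stretch, from 16163 to 16345 bp, had means of 18.5%, 33.4%, 2.76% and 3.27%. Between those starts and the coding sequence methylation in serum was higher, and 7 sites from 29881 to 30073 bp had means of 44.0%, 62.7% and 4.6% in the 3 libraries that covered them, all but Chr4-cl KO 2i + Vitamin C. The coding sites that follow, 9 from 30768 to 30876 bp, had means of 2.43%, 4.81%, 2.04% and 0.342%. Beyond them, 2 intron sites from 68894 to 69093 bp had means of 91.8%, 93.8%, 33.3% and 45.8%. In serum Gata4 was therefore low just upstream of the downstream starts and in the first coding exon, intermediate between them, and high at both outer ends of the gene. Over 50 sites its level was 14.4% ± 23.1, 22.3% ± 25.9, 4.94% ± 9.14 and 4.73% ± 10.9.

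Gata6 (chromosome 18) had means of 10.5% ± 8.81, 17.1% ± 9.44, 1.79% ± 3.47 and 1.23% ± 1.64 over 7 intron sites of its 5′ window, from 814 to 893 bp. The 5 intron sites from 1210 to 1307 bp had means of 23.9%, 30.9%, 4.67% and 0.967%. The coding sites that follow were low, with means over 12 sites from 2311 to 2385 bp of 1.19%, 3.79%, 2.57% and 0.741%. The 7 sites that set the level of the 5′ window thus lie downstream of a low stretch, and 9 sites closer to the start, from 200 to 284 bp, had 0.863%, 1.63% and 1.02% in the 3 libraries that covered them. The site at 1238 bp had 41.5% of 41 reads, 41.4% of 87, 10% of 60 and 1.2% of 83. It changed by -31.5 points in WT (Fisher's exact test, adjusted p = 0.00186) and -40.2 points in Chr4-cl KO cells (adjusted p = 1.27e-10).

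The second comparison was between media. A site was called when Fisher's exact test gave an adjusted p under 0.05 over all sites with at least 10 reads in both libraries and the difference was at least 20 points. In WT cells 76 of 627 sites of the 10 genes were lower in 2i + Vitamin C and 1 was higher, where 31.8% of all 628419 sites were called lower and 0.144% higher. In Chr4-cl KO cells 57 of 445 sites were lower and none was higher, where 28.6% of 437979 were called lower and 0.0297% higher. The 5′ windows gave 3 of 224 sites in WT (1.34%) and 5 of 168 in Chr4-cl KO cells (2.98%), beside 2.72% and 2.98% in the 5′ windows of all protein-coding genes. The rest of the spans gave 73 of 403 (18.1%) and 52 of 277 (18.8%), beside 51.3% and 50.5% for all protein-coding genes.

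Lef1 and Gata4 held most of these calls by count, and also had the most tested sites in the rest of the span. The share of tested sites called lower there was highest in T, though from few sites. It was 3 of 6 in WT and 5 of 5 in Chr4-cl KO cells, beside 36 of 121 and 23 of 81 in Lef1. In WT cells the lower sites were 36 in Lef1, 28 in Gata4, 6 in Gata6, 3 in T, 2 in Fgf5 and 1 in Nodal. In Chr4-cl KO cells they were 23 in Lef1, 14 in Gata4, 9 in Gata6, 5 in T, 3 in Fgf5, 2 in Otx2 and 1 in Pou3f1. No site of Lefty2 or Eomes was called lower in either line. Of the 392 sites tested in both lines, 33 were called lower in both, 4 only in WT and 20 only in Chr4-cl KO cells. The lists differ in depth, and the same split is not given over all sites. Whether it is particular to these genes is therefore not known.

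The largest called differences in WT cells were in Lef1 introns and in Gata4. The Lef1 site at 67958 bp had 100% of 12 reads in serum and 28.6% of 28 in 2i + Vitamin C, a change of -71.4 points (Fisher's exact test, adjusted p = 0.000206). The Lef1 sites at 15483, 15512 and 15630 bp changed by -68.4, -66.2 and -64.0 points. The Gata4 site at 4793 bp had 83.3% of 12 and 12.5% of 16 reads, a change of -70.8 points (Fisher's exact test, adjusted p = 0.00127). In Chr4-cl KO cells the Lef1 sites at 50023, 15630, 50011 and 50130 bp changed by -97.0, -78.3, -78.1 and -77.6 points, and the T intron site at 4036 bp by -83.3 points, from 100% of 12 reads to 16.7% of 30. The 3 Lef1 sites near 50 kb had 10 reads each in Chr4-cl KO 2i + Vitamin C, and their 95% Wilson intervals there reached up to 27.8% to 51.0%.

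By gene level, 1 of 7 genes in the 5′ window was at least 10 points lower in 2i + Vitamin C in WT cells (Fgf5, -10.2 points) and 2 of 7 in Chr4-cl KO cells (Fgf5, -11.9, and Gata6, -15.8), where 6.62% and 9.4% of 11302 genes were. In the rest of the span it was 1 of 7 in WT (Lef1, -12.6) and 3 of 7 in Chr4-cl KO cells (Lef1, -20.0, Gata4, -17.6, and Gata6, -11.6), where 74.7% and 81.2% of 9394 genes were. Several of these calls rest on the choice of sites: Fgf5 was -4.97 (WT) and -5.62 (Chr4-cl KO) at 5 reads and -0.0556 and -2.24 with a 5′ window of 500 bp, and Lef1 was -8.23 in WT at 20 reads. The members' median level in the rest of the span was 7.85%, 9.94%, 3.33% and 2.15%, and that over all genes 54.9%, 64.7%, 18.9% and 16.3%.

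The third comparison was between genotypes. In serum, 7 of 587 sites were called higher in Chr4-cl KO cells and none lower, where 1.82% of 588613 sites were called higher and 0.115% lower. In 2i + Vitamin C, 1 of 469 was called lower and none higher, where 0.361% of 458443 were called lower and 0.0897% higher. No gene level differed by 10 points in either medium or window, of 7 genes with a level in each, but Gata6 (rest of the span) was 11.03 points higher in Chr4-cl KO serum where at least 20 reads were required. Among all protein-coding genes, 3.21% in the 5′ window and 17.1% in the rest of the span were at least 10 points higher in Chr4-cl KO serum, and 0.177% and 0.639% lower. In 2i + Vitamin C, 0.69% and 7.75% were at least 10 points lower in Chr4-cl KO cells, and 0.168% and 1.09% higher. The largest gene level differences in serum were 7.89 points in Gata4 and 5.92 in Gata6 (rest of the span) and 6.58 in Gata6 (5′ window). The largest in 2i + Vitamin C was -4.18 in Lef1 (rest of the span).

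Of the 7 sites called higher in Chr4-cl KO serum, 3 were neighbours in a Lef1 intron. At 68691, 68721 and 68724 bp (chr3:130882080-130882113) they had 48.6%, 61.6% and 57.5% of 72 or 73 reads in WT and 86.0%, 90.9% and 87.3% of 55 to 57 in Chr4-cl KO cells (adjusted p = 0.000787, 0.00697 and 0.012, Fisher's exact test), and 16.7%, 12.4% and 20.4% in WT 2i + Vitamin C. In Gata4, the site at 29881 bp (chr14:63860648) had 37.0% of 27 reads and 80.8% of 26 (adjusted p = 0.0452) and lay 10 bases before the CpG of a CCGG, and the site at 16342 bp, inside the printed repeat stretch, 34.2% of 120 and 61.2% of 49 (adjusted p = 0.0431, Fisher's exact test). The sites in Pou3f1 and Gata6 that make up the 7 had another pattern.

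The Pou3f1 site lies at 341 bp (chr4:124335237), in the coding exon, and was called in all 4 comparisons. It had 1.28% of 391 reads in WT serum (95% Wilson interval 0.547 to 2.96), 36.0% of 292 in Chr4-cl KO serum (30.7 to 41.6), 32.7% of 452 in WT 2i + Vitamin C (28.6 to 37.2) and 0% of 67 in Chr4-cl KO 2i + Vitamin C (0 to 5.42). Chr4-cl KO cells were thus 34.7 points higher in serum (Fisher's exact test, adjusted p = 1.38e-34), while in 2i + Vitamin C the difference was -32.7 points (adjusted p = 3.03e-08). The site is shown with its neighbourhood (chr4:124335196-124335247, plus strand), where capitals mark this CpG and the CCGG that follows it.
Pou3f1 site: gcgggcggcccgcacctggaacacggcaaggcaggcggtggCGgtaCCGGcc

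The CpG of that CCGG lies 6 bases after the site. The next CpG on the near side, at 335 bp, had 0.765%, 2.74%, 0.885% and 0%, and the first on the far side, at 347 bp, 0.939%, 2.85%, 2.89% and 2.47%. The CpG at 323 bp went the same way at a lower level, with 0.763%, 9.25%, 11.5% and 1.45%. The Gata6 site called higher in Chr4-cl KO serum, at 6618 bp, also lay 6 bases before the CpG of a CCGG. It had 3.12% of 64 reads, 31.2% of 48, 13.9% of 238 and 0% of 26 (adjusted p = 0.00316 in serum, Fisher's exact test). The stretch around it was also higher in Chr4-cl KO serum on average. The 6 sites from 6387 to 6618 bp, with this site among them, had means of 8.44%, 24.45%, 4.37% and 5.94%. The 2 sites from 6624 to 6648 bp had means of 1.17%, 12.6%, 1.86% and 0%. Over the whole data set, 403 sites covered in all 4 libraries were called higher in Chr4-cl KO serum and lower in Chr4-cl KO 2i + Vitamin C. Of these, 148 (36.7%) lay exactly 6 bases before the CpG of the next CCGG, as did 0.914% of all 400195 sites, and 21 sites were called in the reverse way, none of them at that distance. The 2 libraries with low values at these sites, WT serum and Chr4-cl KO 2i + Vitamin C, are also those whose deposited file holds a second table appended to the first. The appended parts hold 59 and 54 sites with at least 10 reads. That these libraries were the lower of each pair at the 403 sites follows from how those sites were picked. What part the library preparation or the processing has in this pattern was not tested.

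**Figure D4:**
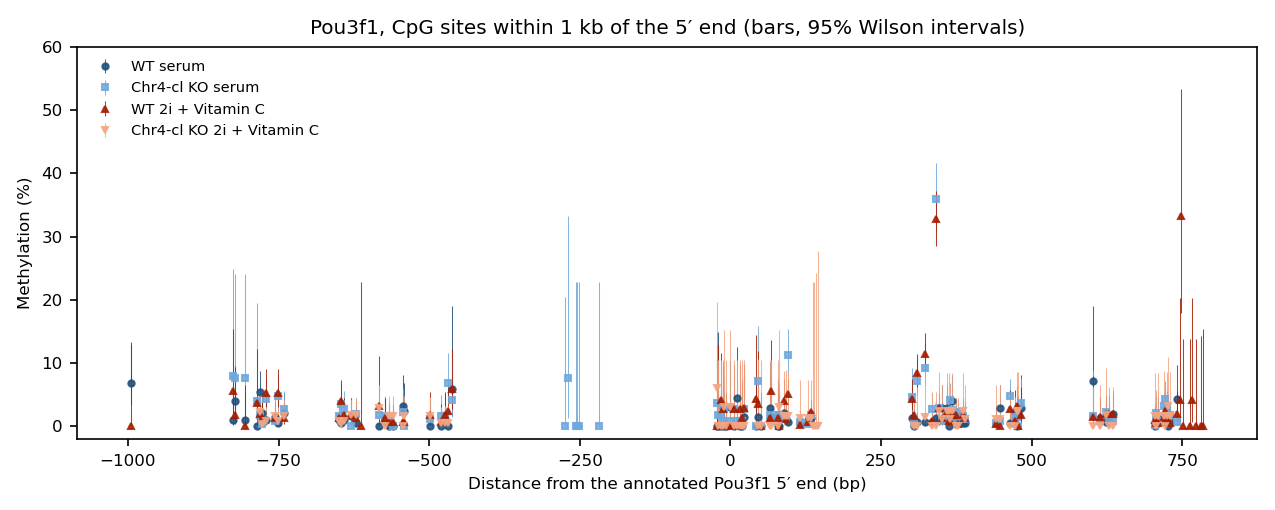
Methylation (%) of CpG sites with at least 10 reads within 1 kb of the annotated Pou3f1 5′ end, against the distance from it (bp), by library, with 95% Wilson intervals that cover counting error only. Nearly all sites lie near 0; at 341 bp Chr4-cl KO serum (36.0%) and WT 2i + Vitamin C (32.7%) stand apart from WT serum (1.28%) and Chr4-cl KO 2i + Vitamin C (0%).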

How the data were processed

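Trimming was done by the authors with Trim Galore and alignment to mm9 with Bismark, after which a script of theirs merged both strands of each CpG. They deposited for each CpG the read count, the methylated read count and the methylated fraction. The tables for WT serum and Chr4-cl KO 2i + Vitamin C each hold a second table after the first, and positions listed more than once (332 and 830 rows) were left out. Levels were recomputed from the counts at sites with at least 10 reads. Sites were tested between 2 libraries with Fisher's exact test (2-sided, own code in numba 0.67.0, checked on simulated data) and Benjamini-Hochberg adjustment over all sites, and called at an adjusted p under 0.05 and a difference of at least 20 points. Sites of 1 MspI fragment share reads and are not independent. Gene levels (at least 3 sites covered in all 4 libraries) were compared without a test, and called at 10 points. Intervals are 95% Wilson intervals and, like the p-values, cover counting error only, since PCR copies were not told apart. All 10 genes were named, with the 5 largest called differences of each comparison and the most methylated site of each gene covered in all 4 libraries, and the other sites and stretches were chosen after their values were seen. The genes, the lists of related genes and the tests were chosen with earlier results of these data known. The printed bases are from mm9.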

Additional observations from a re-analysis of the deposited data

Results flagged for a closer look

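The genotype difference (Chr4-cl KO minus WT) had opposite signs in serum and in 2i + Vitamin C for most gene levels, with 1 library per combination, and that the 2 differences differ was not tested. In the 5′ window all 7 genes were higher in Chr4-cl KO serum than in WT serum, and lower in 2i + Vitamin C, as were 9871 and 9634 of 11302 genes overall. The difference in 2i + Vitamin C minus that in serum was -1.66 points for Fgf5, -2.5 for Pou3f1, -2.63 for Lef1, -1.74 for Nodal, -4.02 for T, -1.55 for Eomes and -7.14 for Gata6, and -1.9 for the difference of the members' medians. In the rest of the span 6 of 7 genes had opposite signs, with Lefty2 higher in Chr4-cl KO cells by 4.36 points in serum and 0.239 in 2i + Vitamin C. Here the values were -2.72 for Otx2, -4.77 for Pou3f1, -7.37 for Lef1, -0.794 for Nodal, -8.1 for Gata4 and -6.78 for Gata6, and -4.22 for the medians. These signs depended on the choice of sites, since 5 of 7 genes in each window had another sign in serum or in 2i + Vitamin C under at least 1 other setting, Pou3f1 and Eomes in the 5′ window and Pou3f1 and Lef1 in the rest being those that did not. In the 5′ window, T was 0.887 in 2i + Vitamin C at 20 reads, 0.736 with pooled reads and 0.739 with 500 bp, and -0.212 in serum with 500 bp. Gata6 was 0.313 in 2i + Vitamin C and Nodal -0.0525 in serum at 5 reads, Fgf5 -0.25 in serum over MspI fragments, and Lef1 -0.61 in serum at sites covered in the pair. Over all genes 8222 and 7447 of 9394 had these signs. The Pou3f1 site at 341 bp moved most, with -67.4 points between the 2 differences, each of which passed Fisher's exact test on its own.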

How the results depend on the processing

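No called value changed direction, but calls of gene levels between media (10 points) were lost or gained. Fgf5 in the 5′ window was under 10 points at 5 reads, with 500 bp, over MspI fragments (-8.92 in WT, -9.65 in KO) and in the pair (-4.6 and -7.49), and Gata6 in Chr4-cl KO cells at 5 reads (-7.55). In the rest, Lef1 in WT was under it at 20 reads (-8.23), and in Chr4-cl KO cells Gata4 with pooled reads (-9.35) and Gata6 with 2 kb (-8.77). Calls were gained by Gata6 in WT with 2 kb in the 5′ window (-13.1) and in the rest at 20 reads (-11.7), by Gata4 in WT over fragments (-17.8), in the pair (-14.7) and without sites before a CCGG (-10.8), by Pou3f1 in Chr4-cl KO cells with 2 kb (-10.3), and by Gata6 between genotypes in serum at 20 reads (11.03). No paired analysis was possible because each group has 1 library and the labels give no replicate numbers, and no library can be left out. Depth limits sites with about 10 reads, such as those of Lef1 near 50 kb. Settings with covered pairs of libraries, without sites up to 20 bases before a CCGG, or with all transcript starts were chosen after seeing the data. The count of sites higher in Chr4-cl KO serum, 7, became 11 at a difference of 10 points, 3 at 30 points, 3 at sites covered in all 4 libraries, 4 when thinned to equal coverage, 27 by size alone and 4 without sites up to 20 bases before a CCGG. The 1 site lower in Chr4-cl KO 2i + Vitamin C became 9 by size alone and 0 without those sites. Between media in WT, the 1 higher site became 3 at 10 points, 2 by size alone and 0 without those sites, and the 76 lower sites 37 at sites covered in all 4 libraries. In Chr4-cl KO cells the 57 lower sites became 35 at 20 reads, and 1 site was higher at 10 points. Shares over all sites are not given for these other settings, so whether the counts depart from those of all sites is not known. For the members' median gene level difference, in points, Chr4-cl KO minus WT in serum, 1.34 in the 5′ window, became 0.755 with a window of 500 bp and 0.927 at sites covered in the pair. In the rest of the span 3.52 became 2.6 with pooled reads, 2.55 with 500 bp, 5.26 with 2 kb, 5.42 over MspI fragments and 4.83 in the pair. In 2i + Vitamin C, -0.56 in the 5′ window became -1.16 with 500 bp, -0.992 with 2 kb, -0.871 in the pair and -0.868 without sites before a CCGG, and -0.701 in the rest became -0.223 without them. Between media in WT, -0.331 in the 5′ window became -0.989 at 20 reads, -1.19 with pooled reads, -0.81 with 500 bp, -0.867 with 2 kb and with all starts, and 0.232, with the other sign, without sites before a CCGG. In the rest, -4.85 became -4.07 at 5 reads, -6.34 at 20 reads and -3.33 with 2 kb. In Chr4-cl KO cells, -2.53 in the 5′ window became -4.35 with 2 kb, -2.85 over fragments and -3.92 with all starts. In the rest, -7.85 became -5.26 at 5 reads, -10.3 at 20 reads, -10.1 with 500 bp, -9.52 with 2 kb, -8.98 over fragments and -7.25 in the pair. The cause of these changes was not tested.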

Other observations

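Genes of the same pathways were listed without regard to their values here but with earlier results of these data known. In the rest of the span they were mostly more methylated than the 7 genes described above that had a level there. Fgf5, T and Eomes had no such level, and the 2 sites of T covered in all 4 libraries had means of 72.1% in WT serum and 82.2% in Chr4-cl KO serum. The 12 genes listed for the primed epiblast were an exception. Their medians over 10 measured genes were 5.16%, 8.63%, 2.54% and 1.94%, in the library order given above. These lay below the medians of the 7 genes described above with a level there, which were 7.85%, 9.94%, 3.33% and 2.15%. Of the 10 measured epiblast genes, 2 in the WT clone and 3 in the KO clone were at least 10 points lower in 2i + Vitamin C. The largest differences were in the kinase gene Pim2 (71.6%, 81.8%, 30.7% and 26.3% over 6 sites) and in Nes, which encodes the intermediate filament nestin (50.9%, 56.2%, 16.2% and 11.2% over 4 sites).

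For the Nodal pathway, 7 of 13 genes were measured in the rest of the span, with medians of 52.7%, 72.1%, 20.4% and 19.9%, and 5 in the WT clone and 6 in the KO clone were at least 10 points lower in 2i + Vitamin C. The largest differences were in Smad3, a signal transducer of the pathway (83.3%, 88.1%, 35.1% and 29.9% over 38 sites), and in the receptor gene Acvr1b (76.7%, 81.3%, 34.8% and 29.1% over 3 sites). For the primitive streak and mesoderm, 12 of 19 genes had medians of 23.3%, 27.6%, 8.23% and 6.85%, and 7 and 10 were at least 10 points lower. The homeobox gene Cdx1 had 85.2%, 86.7%, 25.8% and 28.2% over 4 sites. Msgn1, a mesoderm transcription factor, was methylated at its 5′ window, with 67.5%, 81.7%, 17.5% and 25.7% over 9 sites. Such a level was reached in none of the 7 genes described above that had a level in the 5′ window. Otx2, Lefty2 and Gata4 had none there, so they cannot be compared. The Gata4 site at 1257 bp, within 1 kb of a further annotated start at 568 bp, had 88.9% in WT serum and 96.0% in Chr4-cl KO serum.

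For endoderm all 14 genes were measured, with medians of 29.7%, 31.5%, 13.7% and 13.0%, and 8 and 10 were at least 10 points lower. Hnf4a, a nuclear receptor of the endoderm, had 87.0%, 94.7%, 30.2% and 31.2% over 10 sites, and Gata5, a relative of Gata4 and Gata6, 85.5%, 90.6%, 36.9% and 32.2% over 4. The 10 partners of LEF and TCF factors had medians of 37.3%, 43.7%, 13.1% and 10.9%, and 7 in each line were at least 10 points lower. The Wnt target Lgr5 had 61.5%, 76.7%, 27.6% and 25.5% over 8 sites, and Tcf7l2, a relative of Lef1, 52.5%, 60%, 17.2% and 14.5% over 70. In the 5′ window the medians of all 5 lists stayed between 1.26% and 3.58% in WT serum. The shares of all protein-coding genes at least 10 points lower in the rest of the span were 74.7% (WT) and 81.2% (Chr4-cl KO). The median level over all protein-coding genes there was 54.9%, 64.7%, 18.85% and 16.3%. In WT serum the medians of all 5 lists lay below it, so a low level there was not particular to the genes described above. The Nodal pathway list lay above it in the other libraries.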
